A study of Canis lupus familiaris with 37 samples.

Results

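Gene expression was compared between 3 intestinal lymphomas and 1 T-cell lymphoma of dogs on the one side and 12 B-cell lymphomas on the other. The members were chosen by sample title among the primary tumours, which gave 4 samples against 12, together 16 of the 37 samples of the series. The tumours were naturally occurring lymphomas collected from 16 dogs. No treatment is given in the labels. The B-cell lymphomas were multicentric, meaning that they involved lymph nodes in several regions of the body, and the study called the 4 other tumours probable T-cell lymphomas. The study added the 3 intestinal lymphomas, whose phenotype was uncertain, to the T-cell lymphoma on the basis of their expression in these same libraries, so that a difference of all 4 from the B-cell lymphomas is not independent evidence of how they group. All 3 samples of the intestinal site belong to the uncertain group, and site and cell type cannot be told apart. The remaining samples used here were 4 non-neoplastic lymph nodes, which served as controls, 2 cell lines derived from T-cell lymphoma (OSW, 4 samples, and CL-1, 2 samples) and the B-cell lines CLBL-1 (5 samples), CLBL-1M (5 samples) and GL-1 (1 sample). CLBL-1M was established from a tumour that CLBL-1 formed in mice, and the samples of a line are repeats of that line.

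B cells and T cells are the lymphocytes of the adaptive immune response. A B cell recognises antigen through its membrane immunoglobulin, the B-cell receptor, whose signal passes through a cascade of kinases and adaptors, and it presents peptides to T cells on major histocompatibility complex (MHC) class II molecules. A T cell recognises such peptides through the T-cell receptor, and lymphoma of the canine intestine is most often of T-cell type.

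The study states that 12 tumours were classed as B-cell lymphoma and 1 as T-cell lymphoma by flow cytometry. The flow cytometry field of the labels nevertheless did not match the titles. It called intestinal lymphoma 1 unclassifiable and intestinal lymphomas 2 and 3 B cell lymphoma, and it listed the T-cell lymphoma as reference tissue. Of the 12 B-cell lymphomas, 7 were B cell lymphoma in this field, 2 were unclassifiable, 2 were reference tissue and 1 was of T-cell origin. Between 2213883 and 4863730 reads per tumour were counted on genes, so that 3 counts corresponded to 0.617 to 1.36 CPM, the normalized read count of a gene per 1000000 counts. The files give Ensembl gene identifiers without names, and the genes below are given by identifier. Functions were taken from gene ontology terms with which the study annotated them.

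Of 13299 tested genes, 2889 (21.7%) were differentially expressed between the 4 tumours and the 12 B-cell lymphomas at an adjusted p-value of 0.05 (edgeR quasi-likelihood test). Up-regulation in the 4 was found for 1921 genes (14.4%) and down-regulation for 968 (7.28%). The median log2 fold-change of all tested genes was 0.05. In a model of all 37 samples the calls divided more evenly, into 2239 up-regulated and 1965 down-regulated genes. With the 7 B-cell lymphomas that the flow cytometry field also called B cell lymphoma, 1337 genes were up-regulated and 740 were down-regulated. The 3 intestinal lymphomas alone, tested with the T-cell lymphoma as a separate group, differed from the same 12 samples in 2476 genes (18.6%), of which 1686 were up-regulated (12.7%) and 790 down-regulated (5.94%). All these comparisons share the 12 B-cell lymphomas. Only 1 T-cell lymphoma was sequenced, and it was compared without a test. Its level was above that of every B-cell lymphoma for 2553 genes (19.2%) and below every B-cell lymphoma for 2098 genes (15.8%).

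Genes common to all 4 tumours were separated from genes of the intestinal lymphomas alone. A gene was counted as shared where it was called in the comparison of 4 against 12 and all 4 samples lay outside the range of the 12. By this rule 268 genes (2.02% of those tested) were higher and 330 (2.48%) were lower in all 4. A gene was counted for the intestinal site where it was called in the comparison of 3 against 12, all 3 lay outside the range of the 12 and the T-cell lymphoma lay within it. There were 186 such genes (1.4%) with higher and 124 (0.932%) with lower expression. The place of the T-cell lymphoma was counted for all genes with the 3 intestinal lymphomas outside the range. It lay below every B-cell lymphoma for 68.8% of the 448 genes that were called lower with all 3 intestinal lymphomas below the range, and above every B-cell lymphoma for 55.0% of the 458 genes that were called higher in this way. The T-cell lymphoma was below every B-cell lymphoma for 15.8% and above for 19.2% of all tested genes. Both placements use the range of the same 12 samples, so some agreement is built in. Because each sample must lie outside a range, the numbers depend on the samples used. The shared genes numbered 598 in all, 898 without intestinal lymphoma 3 and 958 with the 7 B-cell lymphomas named above. The site genes numbered 310 in all, 679 without intestinal lymphoma 2 and 530 without intestinal lymphoma 3.

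**Figure D1:**
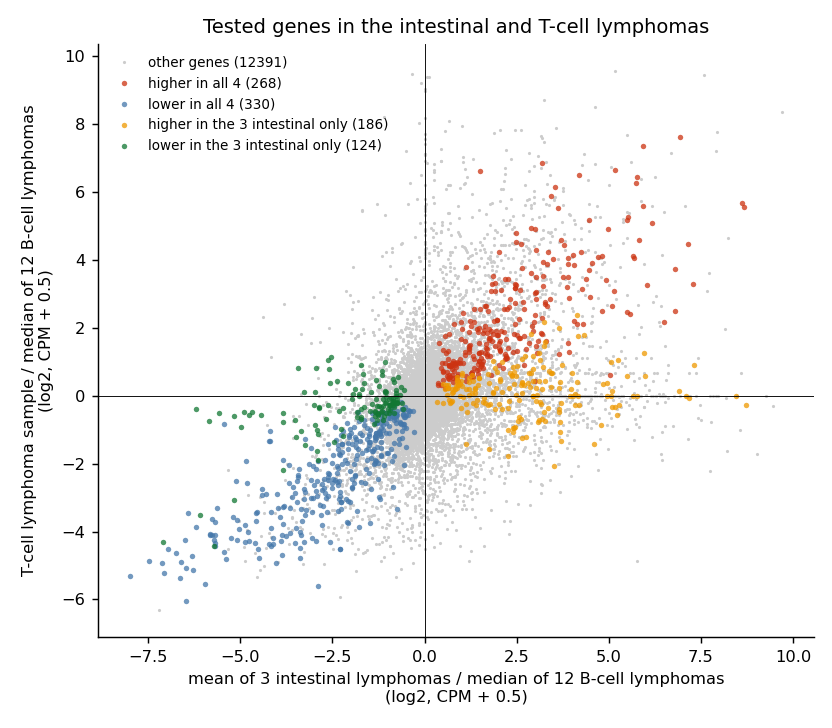
Each point is a tested gene, with the mean of the 3 intestinal lymphomas (x axis) and the level of the T-cell lymphoma (y axis) both relative to the median of the 12 B-cell lymphomas, as log2 of CPM + 0.5. The 268 and 330 shared genes lie toward the upper right and lower left, whereas the 186 and 124 genes of the intestinal lymphomas alone lie mostly along the horizontal line, and most of the 13299 genes lie near the centre.

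Some genes of B-cell receptor signalling were lower in the intestinal and T-cell lymphomas, a few were higher, and the others were not called. Of 20 tested members of this list, 8 were down-regulated and 3 were up-regulated in the 4 tumours, with a median log2 fold-change of -0.68. Of all tested genes, 7.28% were down-regulated and 14.4% up-regulated in this comparison, so that the up-regulated members were near the share of all genes. In the 3 intestinal lymphomas 7 were down-regulated and 2 up-regulated (median -1.06), and without intestinal lymphoma 3 the number of up-regulated members was 4. The summed level of the list was 1611 to 4504 CPM in the intestinal lymphomas and 2923 CPM in the T-cell lymphoma. In the B-cell lymphomas it was 4457 to 8841 CPM, so that intestinal lymphoma 1 lay within their range. The members of this and the following lists were those the study had found to differ from controls in these same samples, and the counts are therefore not independent evidence of a direction. In bulk tissue, fewer cells of a type and less RNA per cell cannot be told apart.

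ENSCAFG00000012677, a member annotated with B-cell receptor signalling, was expressed at 2.25, 3.20 and 0.889 CPM in intestinal lymphomas 1 to 3 and at 16.1 CPM in the T-cell lymphoma. The B-cell lymphomas ranged from 335 to 1226 CPM (median 660). No value of the 4 came near the lowest B-cell lymphoma, and the log2 fold-change of the 4 was -6.74 ± 0.67 (SE, adjusted p = 4.42e-06, edgeR). ENSCAFG00000017303, of the same list, had 1.12, 5.95 and 4.0 CPM in the intestinal lymphomas and 14.7 CPM in the T-cell lymphoma, against 412 to 867 CPM (median 568) in the B-cell lymphomas. Again the groups did not overlap (log2 fold-change -6.44 ± 0.50). In both genes the T-cell lymphoma was the highest of the 4. The control nodes lay between the groups, at 208 to 288 CPM for ENSCAFG00000012677 and 208 to 308 CPM for ENSCAFG00000017303.

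ENSCAFG00000015695, annotated with antigen receptor signalling, went the other way. Its level was 394, 383 and 320 CPM in the intestinal lymphomas and 228 CPM in the T-cell lymphoma, whereas the B-cell lymphomas had 3.55 to 96.2 CPM (median 12.6). All 4 samples exceeded all 12 (log2 fold-change 4.02 ± 0.61, adjusted p = 0.00019, edgeR), and the controls had 58.4 to 107 CPM. Among 20 tested genes of B-cell activation, 9 were down-regulated and 2 up-regulated in the 4 tumours (7.28% and 14.4% of all tested genes), with a median log2 fold-change of -0.95. Their summed level was 1003 to 4048 CPM in the intestinal lymphomas, 2714 CPM in the T-cell lymphoma and 3358 to 5276 CPM in the B-cell lymphomas. Intestinal lymphoma 1 again lay within the B-cell range. For B-cell activation, only a minority of the study's members were listed in the source used here, and the counts and sums cover these alone. The same holds for T-cell activation, extracellular matrix and cytokine receptor interaction below.

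Nearly all MHC class II genes were lower. Of 9 tested members, 8 were down-regulated in the 4 tumours and 9 in the intestinal lymphomas, compared with 7.28% and 5.94% of all tested genes. The median log2 fold-changes were -2.25 and -2.43. Of the 9 members, 5 were called and lower in all 4 than in every B-cell lymphoma, as were 2.48% of all tested genes. Added over the members, the level was 836 to 2143 CPM in the intestinal lymphomas and 2516 CPM in the T-cell lymphoma, compared with 2764 to 12397 CPM (median 8106) in the B-cell lymphomas and 8079 to 10976 CPM in the controls. The lowest B-cell lymphoma, replicate 3, was thus close to the T-cell lymphoma.

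ENSCAFG00000018101, an MHC class II gene of the shared class, had 202, 127 and 312 CPM in the intestinal lymphomas and 327 CPM in the T-cell lymphoma. In the B-cell lymphomas its range was 412 to 1769 CPM (median 1079), and the log2 fold-change of the 4 was -2.25 ± 0.36. A different pattern was seen for ENSCAFG00000000896, another member of the complex and a gene of the intestinal lymphomas alone. It was nearly silent in them, with 3.37, 3.66 and 4.89 CPM, whereas the T-cell lymphoma had 153 CPM. That value lay inside the range of the B-cell lymphomas, which was 96.6 to 570 CPM (median 259). The log2 fold-change of the 3 intestinal lymphomas was -6.10 ± 0.72 (adjusted p = 2.43e-05, edgeR), and that of all 4 was -2.71 ± 0.91. The latter was not called when any of the 3 intestinal lymphomas was left out, with adjusted p-values from 0.0856 to 0.0932 by edgeR, or with the 7 B-cell lymphomas named above (0.0936).

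**Figure D2:**
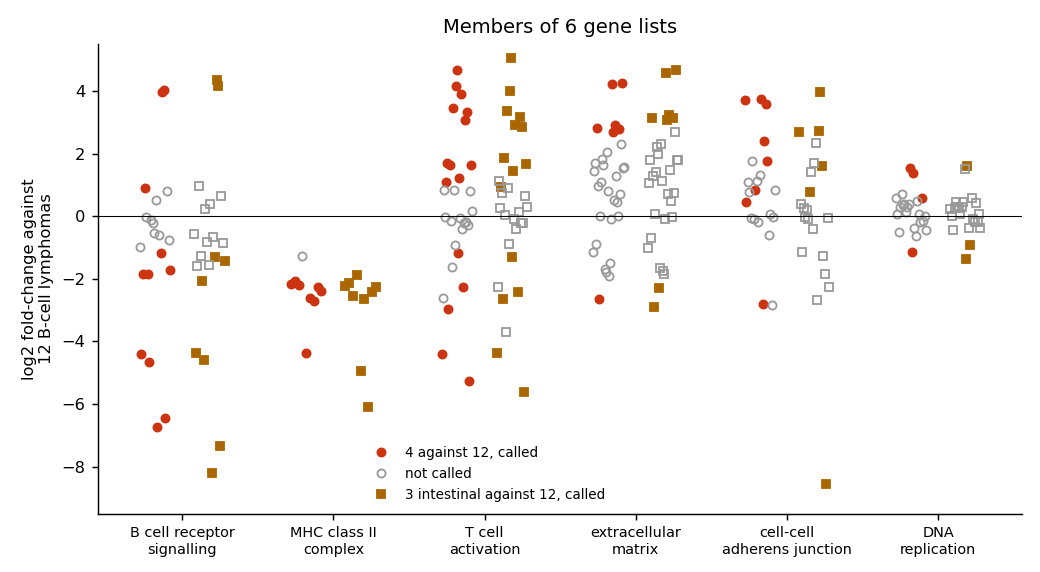
Points are the tested members of gene lists, with log2 fold-change against the 12 B-cell lymphomas on the y axis. Circles show the 4 tumours and squares the 3 intestinal lymphomas, filled where the adjusted p-value was at most 0.05. Nearly every member of the MHC class II list is filled and below 0, while members of the T-cell activation list lie on both sides.

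T-cell activation genes changed in both directions. Among 30 tested members, 11 were up-regulated and 5 down-regulated in the 4 tumours, compared with 14.4% and 7.28% of all tested genes, and the median log2 fold-change was 0.07. Of the 5 down-regulated members, 3 also belonged to the B-cell receptor or MHC class II lists. The summed level of the list was 3087 to 6118 CPM in the intestinal lymphomas, 6531 CPM in the T-cell lymphoma and 3139 to 5487 CPM in the B-cell lymphomas. Intestinal lymphoma 1 and the T-cell lymphoma were above every B-cell lymphoma, intestinal lymphoma 2 was within their range and intestinal lymphoma 3 was below it. ENSCAFG00000010625, annotated with T-cell activation and protein tyrosine kinase activity, had 994, 668 and 147 CPM in the intestinal lymphomas and 744 CPM in the T-cell lymphoma, and 21.2 to 90.1 CPM (median 64.8) in the B-cell lymphomas. The lowest of the 4, intestinal lymphoma 3, still exceeded every B-cell lymphoma (log2 fold-change 3.45 ± 0.39, adjusted p = 1.3e-05, edgeR). ENSCAFG00000031079, annotated with T-cell activation, was the more even gene. Its level was 827, 670 and 641 CPM in the intestinal lymphomas, 630 CPM in the T-cell lymphoma and 95.8 to 387 CPM (median 181) in the B-cell lymphomas, giving a log2 fold-change of 1.63 ± 0.32. The controls, at 414 to 1025 CPM, overlapped with the 4 tumours in this gene. ENSCAFG00000005019, annotated with positive regulation of T-cell activation, was among the 10 shared genes with the largest increase. It reached 1835 CPM in intestinal lymphoma 3 and 1042 CPM in the T-cell lymphoma but 47.0 and 89.7 CPM in intestinal lymphomas 1 and 2. The B-cell lymphomas had 0.819 to 16.7 CPM (median 4.85), and the log2 fold-change was 6.75 ± 0.71.

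Extracellular matrix genes were called at about the share of all genes, and in the adherens junction genes the T-cell lymphoma stood apart. Of 31 tested matrix genes, 6 were up-regulated and 1 down-regulated in the 4 tumours (median 1.08), where 14.4% and 7.28% of all tested genes were called. No matrix gene was called with all 4 samples outside the B-cell range, a rule met by 2.02% (higher) and 2.48% (lower) of all tested genes. With the 7 B-cell lymphomas named above, 3 were up-regulated. Their summed level was 859 to 2256 CPM in the intestinal lymphomas and 1183 CPM in the T-cell lymphoma, overlapping the 1041 to 2201 CPM of the B-cell lymphomas, and 2797 to 4388 CPM in the controls. Of 21 adherens junction genes, 7 were up-regulated and 1 down-regulated in the 4 (median 0.83), against the same 14.4% and 7.28%. The T-cell lymphoma had a summed level of 3424 CPM, against 1488 to 1926 CPM in the intestinal lymphomas and 1117 to 1609 CPM in the B-cell lymphomas. In the intestinal lymphomas 5 of these genes were up-regulated, and 1 without intestinal lymphoma 3.

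Proliferation genes were also examined. Of 22 tested DNA replication genes, 3 were up-regulated and 1 down-regulated in the 4 tumours, which is near the 14.4% and 7.28% of all tested genes. No kinetochore gene was called among 18 (edgeR), with 2 of them at an unadjusted p-value below 0.05 and 2 called by DESeq2. SHCBP1, a gene known for its part in cell division, had 92.5, 140 and 146 CPM in the intestinal lymphomas and 193 CPM in the T-cell lymphoma, compared with 38.3 to 128 CPM (median 83.0) in the B-cell lymphomas. The log2 fold-change of 0.82 ± 0.29 was not called (adjusted p = 0.0517, edgeR), although it was called by DESeq2 (adjusted p = 0.033). The receptor tyrosine kinase gene FLT3 was below the filter used here, which was set on the 16 tumours, and was not tested. It had 13, 8 and 14 counts in the intestinal lymphomas, 20 in the T-cell lymphoma and 1 to 32 in the B-cell lymphomas, and at least 59 in every control.

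The remaining lists are given by their counts in the 4 tumours, where 14.4% of all tested genes were up-regulated and 7.28% down-regulated. Cytokine receptor interaction had 5 up-regulated and 1 down-regulated of 23, and type I interferon production 2 and 6 of 17. Inhibition of viral genome replication had 4 down-regulated of 20 and no up-regulated gene. In smooth muscle cell migration 2 were up-regulated and 3 down-regulated of 14, and in inhibition of endothelial cell migration 5 and 1 of 17. Long non-coding RNAs had 2 up-regulated and 3 down-regulated of 57. None of 7 miRNA genes was called by edgeR, with 2 at an unadjusted p-value below 0.05 and 2 called by DESeq2. In the intestinal lymphomas edgeR called 2 of these miRNA genes down-regulated, where 5.94% of all tested genes were.

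The genes with the largest increase in all 4 tumours were very uneven among them. ENSCAFG00000010242 had 0.562, 108 and 477 CPM in the intestinal lymphomas and 25.1 CPM in the T-cell lymphoma, and at most 0.546 CPM in the B-cell lymphomas. Intestinal lymphoma 1 was above the B-cell lymphomas by less than the CPM of 1 count, although the gene met the rule. ENSCAFG00000001900 was clearly expressed in all 4, with 462, 28.4 and 559 CPM in the intestinal lymphomas and 40.1 CPM in the T-cell lymphoma, and had at most 0.789 CPM in the B-cell lymphomas (log2 fold-change 9.58 ± 0.68, adjusted p = 2.49e-07, edgeR). The ratio of highest to lowest among the 4 was 2.65 at the median of the 262 shared higher genes with at least 3 counts in each of the 4, and at least 10 in 34 of these genes.

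Several of the largest decreases reached the limit of detection, although others, such as that of ENSCAFG00000012677 above, did not. For ENSCAFG00000008583, 2 counts were found in the 4 tumours together, in intestinal lymphoma 1 and the T-cell lymphoma, and 1684 in the 12 B-cell lymphomas, where it ranged from 5.30 to 92.3 CPM (median 51.8). The pooled ratio was 253 (95% exact interval 69.8 to 2087, counting error only). ENSCAFG00000008316 likewise had 2 counts against 1805, a ratio of 271 (95% exact interval 74.8 to 2237), although its lowest B-cell lymphoma had 0.394 CPM, which is under the limit of 3 counts.

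Genes of the intestinal lymphomas alone were led by genes of a single tumour. ENSCAFG00000030923 had 516 CPM in intestinal lymphoma 1 but 0.457 and 3.56 CPM in intestinal lymphomas 2 and 3, and no count in the T-cell lymphoma. A single count was found in the B-cell lymphomas, and the pooled ratio of 8811 (95% exact interval 1579 to 348212) rested on intestinal lymphoma 1. ENSCAFG00000009144 was similar, with 1179, 13.7 and 1.33 CPM in the intestinal lymphomas, 0.288 CPM in the T-cell lymphoma and at most 0.963 CPM in the B-cell lymphomas. Over the 181 genes of this class with at least 3 counts in each intestinal lymphoma, the median ratio of highest to lowest was 2.78, and 17 genes differed 10 times or more. Intestinal lymphoma 1 was the highest of the 3 in 85 of the 181.

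Among the genes lower in the intestinal lymphomas alone, ENSCAFG00000018085, an adherens junction gene, had no count in any of the 3. The T-cell lymphoma had 7.78 CPM and the B-cell lymphomas 1.62 to 29.9 CPM (median 15.1), so that expression was at least 43.2-fold lower in the intestinal lymphomas, with 3 counts over the group as the limit. ENSCAFG00000014130, annotated with immune response, had 0.281, 0 and 0.444 CPM in the intestinal lymphomas, 4.61 CPM in the T-cell lymphoma and 1.98 to 149 CPM (median 101) in the B-cell lymphomas. The T-cell lymphoma lay within the B-cell range of this gene by reason of the lowest B-cell lymphoma alone and was far below the median. The same held for ENSCAFG00000005466 (21.9 CPM, B-cell median 256), ENSCAFG00000005693 (5.19 and 123) and ENSCAFG00000032990 (2.31 and 23.2). All of these genes were also called lower in the comparison of 4 against 12. Over the whole class the median of the T-cell lymphoma was 53.5 CPM, within the 51.9 to 68.0 CPM of the B-cell lymphomas.

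**Figure D3:**
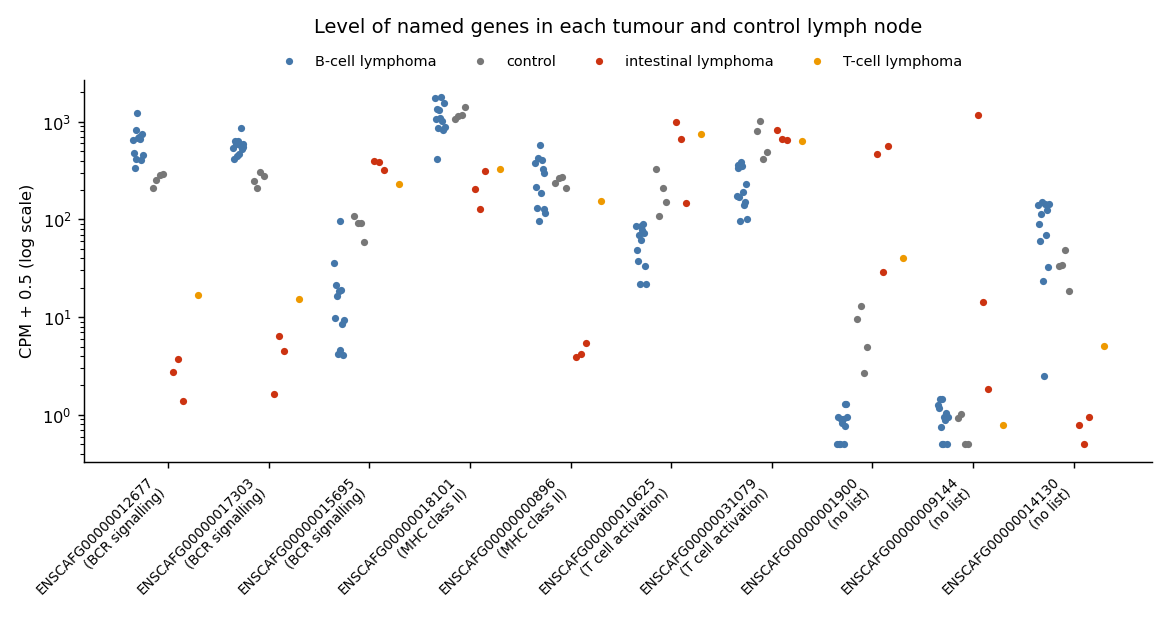
CPM + 0.5 on a log scale for named genes (x axis), with a point for each of 12 B-cell lymphomas (blue), 4 controls (grey), 3 intestinal lymphomas (red) and 1 T-cell lymphoma (orange). The groups separate fully for ENSCAFG00000012677, and the T-cell lymphoma sits with the B-cell lymphomas for ENSCAFG00000000896.

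The control lymph nodes were compared with the classes as a description, since the classes were chosen on the values of these same B-cell lymphomas, and nothing is read from the shares against all genes. At least 1 of 4 controls reached 1 CPM for all but 3 of the 268 shared higher genes and all but 6 of the 186 genes higher in the intestinal lymphomas alone, which leaves 1.12% and 3.23% without such a control, near the 2.04% of all tested genes. All 4 controls were above every B-cell lymphoma for 110 shared higher genes (41.0%), 46 genes higher in the intestinal lymphomas alone (24.7%) and 9.37% of all tested genes. For the shared lower genes, all 4 controls were below every B-cell lymphoma in 55 (16.7%, against 7.32% of all genes). The median level of the shared higher genes was 11.2 to 18.4 CPM in the 12 B-cell lymphomas, 29.8 to 34.9 CPM in the 4 controls, 52.0 to 69.7 CPM in the intestinal lymphomas and 59.95 CPM in the T-cell lymphoma.

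**Figure D4:**
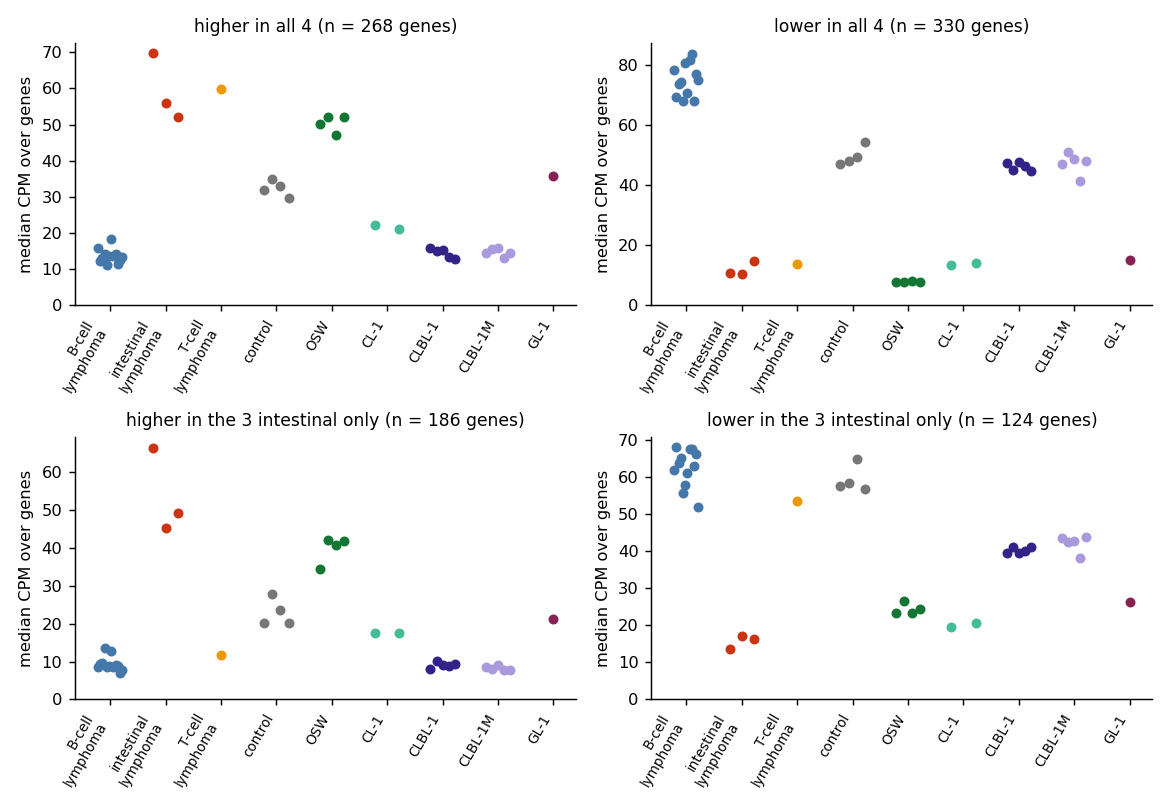
Median CPM over the genes of each class (y axis, linear from 0), with a point for every sample of each group (x axis). The tumours were used to choose the classes, the controls and cell lines were not. For genes lower in all 4, OSW, CL-1 and GL-1 lie at 7.70 to 14.9 CPM, and CLBL-1 and CLBL-1M at 41.5 to 51.2 CPM.

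The cell lines took no part in choosing the genes. In a comparison made after the data were seen, the 6 samples of the T-cell lines OSW and CL-1 were tested against the 10 samples of CLBL-1 and CLBL-1M. The samples of a line are repeats, and CLBL-1M came from CLBL-1. The calls therefore describe these lines and not T-cell against B-cell tumours in general. Of the 268 shared higher genes, 142 (53.0%) were higher in the T-cell lines, compared with 22% of all tested genes, and 32 were lower. Of the 330 shared lower genes, 228 (69.1%) were lower in the T-cell lines, compared with 21.6% of all tested genes, and 22 were higher. Of the 186 genes higher in the intestinal lymphomas alone, 87 (46.8%) were higher in the T-cell lines and 15 were lower. Of the 124 genes lower in the intestinal lymphomas alone, 55 (44.4%) were lower in the T-cell lines and 15 (12.1%) were higher. The T-cell lymphoma lay within the B-cell range for these genes by rule, which does not mean that its level was unchanged.

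Each T-cell line was also tested apart against the CLBL lines. OSW was higher in 72.0% of the shared higher genes (25.2% of all tested genes) and lower in 71.2% of the shared lower genes (19.5% of all). CL-1 was higher in 38.4% (20.8% of all) and lower in 52.4% (17.8% of all). Of the genes higher in the intestinal lymphomas alone, 64.0% were higher in OSW and 33.3% in CL-1. The lines OSW and CL-1 were not tested against each other. ENSCAFG00000012677 was at 0.16 CPM in OSW and 0 in CL-1 on average, and at 169 CPM in CLBL-1.

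GL-1, a line labelled as derived from B-cell lymphoma and present as 1 sample, did not lie with the CLBL lines. Its median over the shared lower genes was 14.9 CPM, next to 13.4 and 13.9 CPM in CL-1, 13.8 CPM in the T-cell lymphoma and 10.5 to 14.7 CPM in the intestinal lymphomas. Over the shared higher genes it had 35.8 CPM, between CL-1 (21.2 and 22.1 CPM) and OSW (47.2 to 52.1 CPM). Its summed MHC class II level was 86.8 CPM, compared with 7908 to 12078 CPM in the CLBL lines, 5287 and 5459 CPM in CL-1 and 21.4 to 31.8 CPM in OSW. A low level of these genes was therefore found in a line of B-cell label as well, and a high level of the MHC class II genes in a T-cell line. The single GL-1 sample allowed no test.

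**Figure D5:**
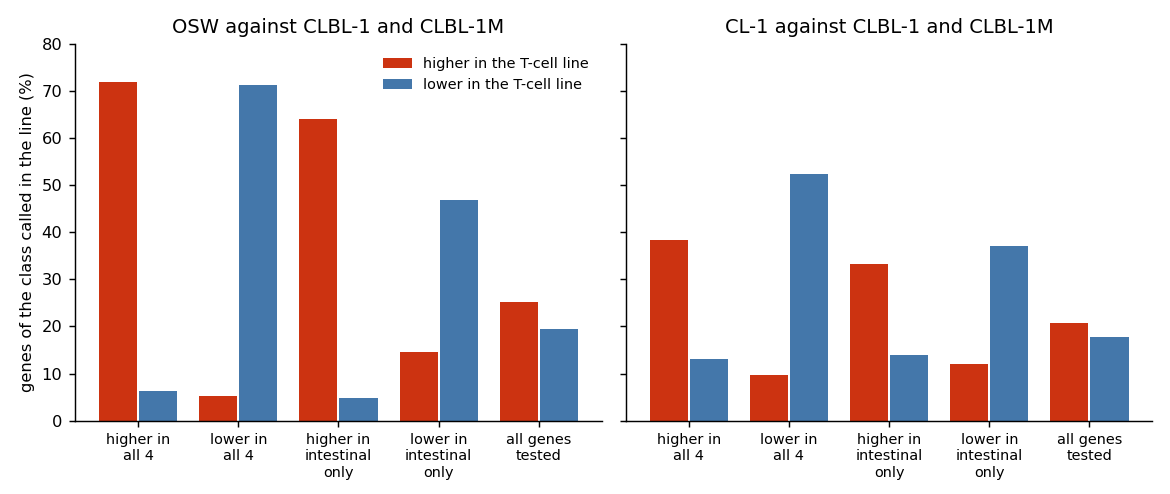
Bars give the percentage of genes of each class that were higher (red) or lower (blue) in the T-cell line than in CLBL-1 and CLBL-1M at an adjusted p-value of at most 0.05, with all tested genes at the right. In OSW 72.0% of the genes higher in all 4 tumours were higher, against 25.2% of all genes, and in CL-1 38.4% against 20.8%.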

How the data were processed

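Poly-A RNA was sequenced as paired-end reads. BWA was used by the authors for mapping to the CanFam3.1 build, Picard and SAMtools for removing duplicate and poorly mapped reads, and HTSeq 0.6.1 for counting on Ensembl genes. They deposited raw read counts for each sample, without normalization. The strand setting of the counting is not given in the sources used here, so overlapping genes on opposite strands may share reads. Rows that name no gene were left out. Of the reads in the tumour files, 70.0 to 76.1% were assigned to no gene feature in the counting and 0.098 to 0.229% to more than 1 gene.

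Samples were grouped by title. Of 32704 genes, 22170 had a count in the 16 tumours and 13299 were kept, with the highest CPM above the 40th percentile. The study used this percentile over all 37 samples and apart for each type of gene, whereas here it was set on the 16 tumours and all genes together. Counts were normalized by TMM and tested in edgeR 4.0.16 (R 4.3.3) with quasi-likelihood fits of 2 groups (4 against 12) and of 3 groups (3 intestinal, 1 T-cell, 12 B-cell), with Benjamini-Hochberg adjustment and a threshold of 0.05. CPM values are TMM-scaled. Standard errors were obtained from the fold-change and the F statistic. Lines were compared in a model of 9 groups over the 37 samples. P-values measure the spread between dogs or, for lines, between samples of a line. No pair of libraries within the B-cell lymphomas or within the intestinal lymphomas differed by as little as counting noise (lowest chi-square per degree of freedom 11.2). Other pairs were not checked.

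The members, lists and tests were chosen with earlier results of these data known. The rule for named genes was the members of gene lists, and the 10 largest changes in either direction of each class with a mean of at least 10 CPM in the higher group. It required gene symbols, which the files do not give: of the RefSeq gene table, 0 entries carried an Ensembl identifier. Lists and marker genes by symbol could therefore not be used, cell types were not checked by markers, and 15 lists by identifier from the study's supplementary annotation were used instead, 4 of them (B-cell activation, T-cell activation, extracellular matrix, cytokine receptor interaction) only in the minor part shown there. Identifiers printed are the extremes of each class and genes with an annotation, and the latter were chosen after their values were seen. The alternatives were DESeq2 1.42.0, RLE size factors, other filters, all 37 samples, a threshold of 1e-05, the replicate number as a block, and leaving out samples. Those on the flow cytometry field, the lists and the lines were added after the data were seen.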

Additional observations from a re-analysis of the deposited data

Results flagged for a closer look

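In 17 of the genes named above, the CPM of the 4 tumours and of the 4 controls was checked for a sample far from the other 3. Chance alone gives this in about 1 of 20 groups of normally distributed values, whereas CPM was used here without a log. Intestinal lymphoma 1 lay far above the others for ENSCAFG00000030923 (516 CPM) and ENSCAFG00000009144 (1179 CPM). The T-cell lymphoma lay far above the intestinal lymphomas for ENSCAFG00000000896 (153 CPM), ENSCAFG00000012677 (16.1 CPM), ENSCAFG00000018085 (7.78 CPM) and ENSCAFG00000014130 (4.61 CPM). All but ENSCAFG00000012677 of these 4 are genes lower in the intestinal lymphomas alone, whose choice required the T-cell lymphoma to lie within the B-cell range, so that the chance rate does not apply to them. Nor does the rate apply to ENSCAFG00000030923 and ENSCAFG00000009144, which were named for their fold-change, a choice that favours a single high sample. Among the controls, replicate 3 stood apart for ENSCAFG00000030923 (1.25 CPM) and replicate 1 for ENSCAFG00000005019 (65.5 CPM). The value of control replicate 3 was close to the 0.989 CPM of 3 counts in that sample.

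Among the genes called in the intestinal comparison with all 3 outside the B-cell range, the T-cell lymphoma lay on the opposite side for 36. In 20 of them all 3 intestinal lymphomas were above and the T-cell lymphoma below every B-cell lymphoma, and in 16 the reverse held. These are 4.37% of the 458 genes called higher and 3.57% of the 448 called lower in this way. Of all tested genes, the T-cell lymphoma lay below every B-cell lymphoma for 15.8% and above for 19.2%. The place of the T-cell lymphoma was not tested, since there was only 1 such sample. An example of the first kind, chosen after its values were seen, is ENSCAFG00000029024, with 892, 478 and 8.89 CPM in the intestinal lymphomas, no count in the T-cell lymphoma and 0.397 to 1.97 CPM in the B-cell lymphomas. The lowest B-cell lymphoma of this gene was under the limit of 3 counts, so that the T-cell lymphoma could not be told apart from it. An example of the second kind is ENSCAFG00000031923, with 2.25, 4.12 and 4.89 CPM in the intestinal lymphomas, 168 CPM in the T-cell lymphoma and 30.2 to 118 CPM in the B-cell lymphomas.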

How the results depend on the processing

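Under DESeq2, RLE size factors, no filter and filterByExpr, the counts of called, shared and site genes stayed within 1.5 times those reported. The model of all 37 samples called 4123 genes in the intestinal comparison. At the study's threshold of 1e-05, 59 genes differed for the 4 tumours and 80 for the intestinal lymphomas, with 53 shared and 17 site genes. The former 59 divided into 32 higher and 27 lower, and the site genes into 16 higher and 1 lower. In the lines 73 of the shared higher, 39 of the site higher and 30 of the site lower genes kept their call at this threshold. The 7 B-cell lymphomas of the flow cytometry field gave 958 shared genes. Titles share 3 replicate numbers between groups. The mean correlation of deviations was -0.007 for equal numbers, over pairs from -0.16 to 0.106, which are too few to exclude pairing. The tumours came from 16 dogs, so equal numbers do not mark samples of the same dog. The replicate block left 3 and 2 residual degrees of freedom in place of 14 and 13, and gave 40 genes for the 4 tumours, 53 for the intestinal lymphomas, 37 shared and 8 site genes. With the block 4 genes were higher and 36 lower in the 4 tumours, 14 higher and 39 lower in the intestinal lymphomas, and 4 and 33 among the shared genes, so that most calls were then lower. Leaving out samples in turn gave 2348 to 2735 genes for the 4 tumours, 1794 to 2491 for the intestinal lymphomas, 866 to 898 shared genes and 417 to 679 site genes. Shared and site genes are not defined without the T-cell lymphoma. In the lines, leaving out OSW and CL-1 samples gave 127 to 141 shared higher, 215 to 228 shared lower, 72 to 86 site higher and 46 to 55 site lower genes. None of the 17 genes checked for a sample apart changed direction under any of these alternatives. Calls of these genes in the 2 comparisons were lost 20 times at 1e-05, 22 times with the block and 3 times with a sample left out. They were also lost 3 times with the 7 B-cell lymphomas and 1 time in the model of all 37 samples. Differences below the CPM of 3 counts were not detectable at this depth.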
